A study of Homo sapiens with 12 samples.

Results

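The vitamin D axis was followed here through 6 genes, *CYP24A1*, *VDR*, *RXRA*, *RXRB*, *CYP2R1* and *CYP27B1*, found by symbol among the 58302 gene identifiers of the count table. All 6 passed the filter on low counts and were among the 17188 genes tested. *CYP24A1* was chosen by its log2 fold changes with BMP in these same libraries, so its values in the BMP comparisons are given as a description without a test. The other 5 were chosen for their place in the pathway and were tested.

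Vitamin D is made active in steps. *CYP2R1* encodes the main hydroxylase that makes 25-hydroxyvitamin D, and *CYP27B1* the mitochondrial hydroxylase that turns this into the hormone calcitriol. Calcitriol binds the receptor encoded by *VDR*, which acts on DNA as a pair with a retinoid X receptor, encoded by *RXRA* or *RXRB*. *CYP24A1* encodes the mitochondrial hydroxylase that inactivates both forms, and it is itself a classic VDR target, so its transcript is widely read as a sign of VDR activity. Both mitochondrial enzymes draw electrons from ferredoxin, encoded by *FDX1*.

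RNA-seq came from NCIH838 cells, a lung cancer cell line, engineered as MIB1-iKO cells in which doxycycline (Dox) induces Cas9 and thereby knockout of *MIB1*, a ubiquitin ligase. All 12 libraries came from cells held for 3 days in 50 nM LDN, an inhibitor of BMP receptors, either with Dox at 0.5 μg/ml (MIB1 KO) or with none (MIB1 WT), and then given 10 ng/ml BMP4 for 24 hours. During these 24 hours cells received either LDN (BMP-off) or DMSO in its place (BMP-on), which gave 4 groups of 3 replicates. The design asks how transcription answers the release of BMP signaling with and without MIB1. Dox was given to all KO and to no WT cells, so effects of Dox or Cas9 cannot be told apart from those of *MIB1* loss, and the guide RNA of this cell line is not named. No vitamin D compound is named among the treatments.

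Library totals ranged from 19124010 to 29498000 counts. *MIB1* reached 144 to 176 CPM (counts scaled to library size by edgeR's TMM method) in the 6 WT libraries and 31.0 to 34.4 CPM in the 6 KO libraries. The labelled tissue is lung, but of 5 defining lung lineage genes *NKX2-1*, *SFTPB*, *SFTPC* and *SCGB1A1* stayed below 0.1 CPM in every library and *NAPSA* had 0.251 to 1.03 CPM, and of 5 general epithelial markers *KRT19* did not exceed 0.104 CPM. The keratins *KRT8* (92.7 to 192 CPM) and *KRT18* (139 to 166 CPM) were abundant. All 5 immune and all 5 endothelial markers stayed below 1 CPM. Counts of a library deviated from its group with the GC content of the transcript, by a Spearman's rho across genes from -0.60 in KO BMP-off replicate 2 to 0.59 in KO BMP-off replicate 3, and members whose calls change once this trend is removed are given with both values.

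Per transcript length, the 6 genes stood far apart. In the authors' RPKM values (reads scaled to gene model length and library size), *RXRB* was highest with BMP-off, at 22.0, 23.9 and 24.2 in WT cells, followed by *CYP24A1* at 18.8, 18.04 and 17.3. *RXRA* followed at 7.41, 7.24 and 9.42 RPKM. *CYP2R1* (4.12, 4.18 and 4.07) and *CYP27B1* (3.20, 3.999 and 4.27) came next and overlapped, so their order was not resolved. *VDR* was lowest, at 1.47, 1.12 and 1.22 RPKM, at percentile 26.6 of the genes tested. With BMP-on, *CYP24A1* moved ahead of *RXRB* in WT cells (42.2 to 47.7 against 22.3 to 23.1 RPKM) and in KO cells (75.5 to 80.7 against 22.3 to 23.7 RPKM). *CYP24A1* stood at percentile 75.1 of the genes tested in WT BMP-off cells and at percentile 95.3 in KO BMP-on cells. The RPKM of *RXRA* corresponds to a gene model of about 1770 bases, whereas the longest annotated transcript has 5770, so its place against the other genes depends on that model.

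*CYP24A1* (ENSG00000019186) is on chromosome 20 (minus strand), at 54153446 to 54173986 in GRCh38. In WT cells with BMP-off, the 3 replicates had 63.1, 61.6 and 58.6 CPM, and with BMP-on 163, 157 and 145 CPM. KO cells had 62.3, 64.5 and 61.1 CPM with BMP-off and 273, 277 and 260 CPM with BMP-on. The ranges of the WT and KO cells overlapped with BMP-off, whereas with BMP-on every KO library lay above every WT library, and every BMP-on library lay above every BMP-off library. The mean was thus 2.54-fold higher with BMP-on in WT cells and 4.31-fold higher in KO cells. On the log2 scale these differences were 1.34 (standard error 0.053) and 2.11 (standard error 0.053), and the KO response exceeded the WT response by 0.77 (standard error 0.073), a difference for which the gene was chosen. In bulk samples, more expressing cells and more RNA per cell cannot be told apart.

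**Figure D1:**
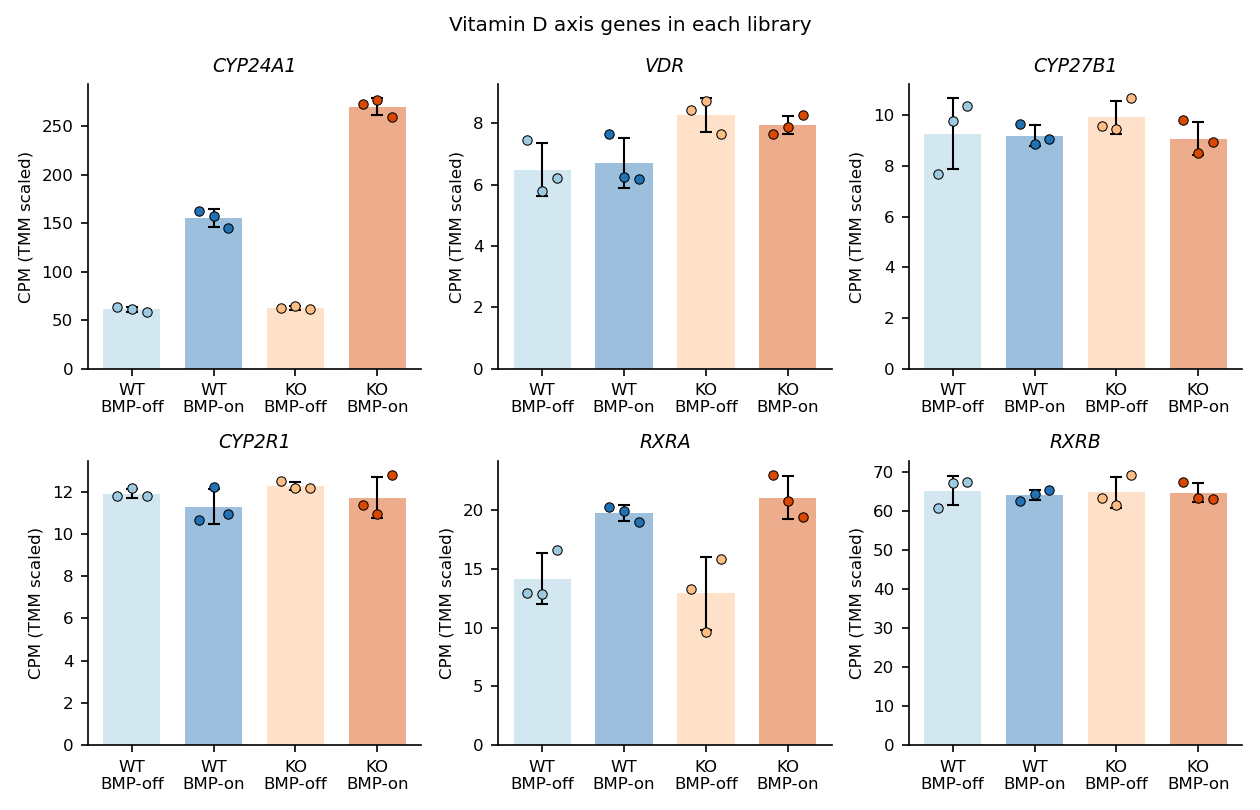
CPM (TMM scaled, linear axes from 0, each gene with its own range) of the 6 vitamin D axis genes by group. Points are libraries, bars are means and error bars are SD (n = 3). *CYP24A1* averaged 61.1 and 155 CPM in WT cells with BMP-off and BMP-on, against 62.7 and 270 CPM in KO cells. *RXRA* averaged 14.1 and 19.7 CPM in WT cells with BMP-off and BMP-on, against 12.9 and 21.05 CPM in KO cells.

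With BMP-off, KO and WT cells differed in *CYP24A1* by a log2 fold change (FC) of 0.04, with a 95% interval from -0.08 to 0.15. These libraries also enter the BMP responses and the interaction by which the gene was chosen, so this value too is a description. The log2 FC of *CYP24A1* stayed between 1.28 and 1.39 in WT cells, 2.01 and 2.14 in KO cells, and 0.75 and 0.84 between KO and WT cells with BMP-on, under all 23 alternative settings.

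Of the 2 genes beside *CYP24A1*, 1 was expressed above trace levels. *BCAS1*, which ends 82852 bases away on the side of lower coordinates, stayed at or below 0.272 CPM in every library and was not among the genes tested. Its BMP-on range was 0.036 to 0.084 CPM in WT and 0.104 to 0.272 CPM in KO cells, a difference that rests on very few reads. *PFDN4*, a subunit of the prefoldin chaperone, starts 34101 bases away on the other side. Its replicates had 77.5, 98.5 and 73.7 CPM in WT BMP-off cells and 81.1, 84.9 and 96.4 CPM in KO BMP-on cells. The log2 FC of *PFDN4* with BMP was 0.03 in WT cells (95% interval -0.24 to 0.31, edgeR adjusted p = 0.93) and -0.00 in KO cells (95% interval -0.28 to 0.27, edgeR adjusted p = 0.98).

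Neither hydroxylase that activates vitamin D passed in any comparison, passing being set at a Benjamini-Hochberg adjusted p from edgeR's quasi-likelihood test that did not exceed 0.05 among the 17188 genes tested. *CYP27B1* (ENSG00000111012, chromosome 12, minus strand, 57762334 to 57768986) had 7.69, 9.78 and 10.4 CPM in WT BMP-off and 9.66, 8.86 and 9.09 CPM in WT BMP-on cells. KO cells had 9.60, 9.48 and 10.7 CPM with BMP-off and 9.81, 8.51 and 8.93 CPM with BMP-on. All 4 groups overlapped. The log2 FC with BMP was -0.01 in WT cells (95% interval -0.24 to 0.23, edgeR adjusted p = 0.99) and -0.12 in KO cells (95% interval -0.35 to 0.11, edgeR adjusted p = 0.46). After GC correction the KO value became -0.29 (edgeR adjusted p = 0.025), a call that no other setting made. *CYP27B1* shares 107 exonic bases on the same strand with *METTL1*, which had a median of 876 counts, so some of its reads are uncertain.

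*CYP2R1* (ENSG00000186104, chromosome 11, minus strand, 14877440 to 14892231) varied little, with 11.8, 12.2 and 11.8 CPM in WT BMP-off, 10.7, 12.2 and 11.0 CPM in WT BMP-on, 12.5, 12.2 and 12.2 CPM in KO BMP-off and 11.4, 11.0 and 12.8 CPM in KO BMP-on cells. Its log2 FC with BMP was -0.07 in WT cells (95% interval -0.26 to 0.11, edgeR adjusted p = 0.75) and -0.06 in KO cells (95% interval -0.24 to 0.12, edgeR adjusted p = 0.64). The RPKM ratio of *CYP24A1* to *CYP27B1* averaged 4.81 ± 0.949 (SD, n = 3) in WT BMP-off and 12.1 ± 0.645 (SD, n = 3) in WT BMP-on cells. In KO cells it averaged 4.54 ± 0.4002 (SD, n = 3) with BMP-off and 21.4 ± 1.75 (SD, n = 3) with BMP-on. These are ratios of transcripts, and no vitamin D metabolite was measured here.

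The receptor gene showed no BMP response that passed the test. *VDR* (ENSG00000111424, chromosome 12, minus strand, 47841537 to 47943048) had 7.44, 5.78 and 6.23 CPM in WT BMP-off and 7.64, 6.26 and 6.18 CPM in WT BMP-on cells. KO cells had 8.44, 8.72 and 7.66 CPM with BMP-off and 7.66, 7.89 and 8.27 CPM with BMP-on. With BMP the log2 FC was 0.03 in WT cells (95% interval -0.21 to 0.28, edgeR adjusted p = 0.93) and -0.06 in KO cells (95% interval -0.30 to 0.18, edgeR adjusted p = 0.75). Every KO library lay above every WT library of the same BMP state, but with GC correction the ranges overlapped, at 5.74 to 7.70 CPM in WT and 7.50 to 9.67 CPM in KO cells with BMP-off and at 6.08 to 7.64 and 7.27 to 8.21 CPM with BMP-on. KO exceeded WT by a log2 FC of 0.35 with BMP-off (95% interval 0.10 to 0.59) and 0.25 with BMP-on (95% interval 0.01 to 0.50), but neither held after adjustment over all genes (edgeR adjusted p = 0.38 and 0.34). With 133 to 242 reads per library, *VDR* was the most thinly counted of the 6 genes, and changes inside these intervals were not excluded.

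*RXRA*, a partner of VDR and of several other nuclear receptors, was higher with BMP-on. It is listed as ENSG00000186350, on chromosome 9 (plus strand), at 134317098 to 134440585. WT cells had 12.9, 12.9 and 16.6 CPM with BMP-off and 20.3, 19.9 and 18.97 CPM with BMP-on. KO cells had 13.3, 9.64 and 15.9 CPM with BMP-off and 23.0, 20.7 and 19.4 CPM with BMP-on. In both backgrounds every BMP-on library lay above every BMP-off library, and KO and WT ranges overlapped in either BMP state.

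*RXRA* rose in KO cells, with a log2 FC of 0.71 (standard error 0.15, edgeR adjusted p = 0.0042). It was the single one of the 5 members other than *CYP24A1* to pass in this comparison, in which 22% of all genes passed (11.1% rose and 10.9% fell). In WT cells the log2 FC was 0.48 (standard error 0.15, 95% interval 0.17 to 0.80) and missed the threshold (edgeR adjusted p = 0.097). None of the 5 passed there, and 3.92% of all genes did (1.91% rose and 2.01% fell). The WT value passed in 8 of 23 alternative settings, among them without WT BMP-off replicate 3 (0.61, edgeR adjusted p = 0.038), without KO BMP-off replicate 2 (0.48, edgeR adjusted p = 0.0026) and without KO BMP-off replicate 3 (0.48, edgeR adjusted p = 0.018). The KO value passed in all 23, from 0.43 to 0.86. The responses in KO and WT cells differed by 0.22 (95% interval -0.23 to 0.67, edgeR adjusted p = 0.69), so the responses were not shown to differ. Of all genes, 0.0931% passed this test of the difference.

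In both KO groups the order of the *RXRA* values followed the GC trend of the libraries. In WT BMP-off cells replicates 1 and 2 had 12.9 CPM each at a rho of -0.43 and 0.12. In WT BMP-on cells the order was not followed, as replicate 1 had the lowest rho (-0.15) and the highest value (20.3 CPM). The transcript of *RXRA* has 60.6% GC. Its lowest library, KO BMP-off replicate 2, had the lowest rho (-0.60), and the highest BMP-off libraries, WT replicate 3 and KO replicate 3, had the highest (0.40 and 0.59). After GC correction WT cells had 14.4, 12.7 and 16.0 CPM with BMP-off and 19.9, 18.8 and 18.04 CPM with BMP-on. KO cells had 14.5, 12.7 and 15.3 CPM with BMP-off and 19.8, 19.4 and 18.4 CPM with BMP-on. BMP-on and BMP-off libraries remained apart. The log2 FC then passed in both backgrounds and was nearly the same size, 0.40 in WT (edgeR adjusted p = 0.0021) and 0.43 in KO cells (edgeR adjusted p = 0.00039), with a difference between them of 0.03 (edgeR adjusted p = 0.94).

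**Figure D2:**
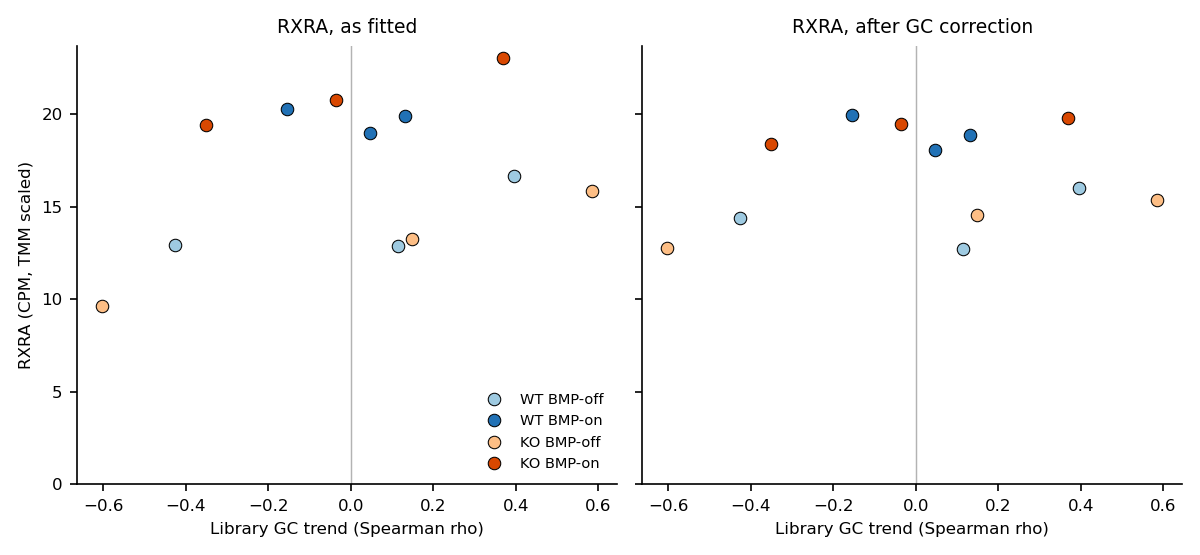
*RXRA* in each of the 12 libraries (y axis, TMM-scaled CPM) against the library's GC trend (x axis, Spearman's rho across genes between GC content and deviation from the group mean), before and after GC correction. Colors mark the groups. BMP-on libraries lie at 18.97 to 23.0 CPM before correction and 18.04 to 19.9 CPM after it, above all BMP-off libraries in both panels.

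*RXRB* (ENSG00000204231, chromosome 6, minus strand, 33193588 to 33200665), the other retinoid X receptor, had 60.9, 67.2 and 67.6 CPM in WT BMP-off and 62.7, 64.4 and 65.3 CPM in WT BMP-on cells. KO cells had 63.3, 61.7 and 69.4 CPM with BMP-off and 67.5, 63.4 and 63.2 CPM with BMP-on, and all groups overlapped. Its log2 FC with BMP was -0.02 in WT cells (95% interval -0.15 to 0.10, edgeR adjusted p = 0.89) and -0.00 in KO cells (95% interval -0.13 to 0.12, edgeR adjusted p = 0.99), intervals that hold neither value of *RXRA*. After GC correction the KO value was -0.22 (edgeR adjusted p = 0.0011), with 67.8, 76.4 and 67.4 CPM in BMP-off and 60.1, 60.1 and 61.0 CPM in BMP-on libraries. *RXRB* shares 361 exonic bases with *SLC39A7*, which lies on the opposite strand and had a median of 8093 counts, and whether the counting used strand is not given in the sources used here. *RXRG*, the third gene of this family, was at 0.00 RPKM in every library.

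The promoters of *RXRA* and *RXRB* are shown because the first gene rose with BMP in KO cells and the second did not pass before GC correction. That of *FDX1* is shown because it is the other gene of the vitamin D enzyme system that rose. Sequences are RefSeq windows of GRCh38.p14, from 250 bases before to 50 bases after a transcript start, read along the gene. Capitals mark every match, on either strand, of 4 motifs. Known from SMAD binding are GGCGCC, a GC-rich element, as well as the shorter CAGAC. Nuclear receptors are known for the half-site AGGTCA, of which AGTTCA is a variant. VDR and RXR are known for binding such half-sites repeated after 3 bases.
RXRA, chr9:134326205-134326504, plus strand: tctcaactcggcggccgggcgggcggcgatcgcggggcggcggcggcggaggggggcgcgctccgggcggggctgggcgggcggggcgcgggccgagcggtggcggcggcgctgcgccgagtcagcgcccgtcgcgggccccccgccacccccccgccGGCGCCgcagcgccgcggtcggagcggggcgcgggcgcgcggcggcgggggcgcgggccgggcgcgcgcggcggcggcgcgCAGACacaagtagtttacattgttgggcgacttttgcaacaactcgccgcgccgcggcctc
RXRB, chr6:33200616-33200915, minus strand: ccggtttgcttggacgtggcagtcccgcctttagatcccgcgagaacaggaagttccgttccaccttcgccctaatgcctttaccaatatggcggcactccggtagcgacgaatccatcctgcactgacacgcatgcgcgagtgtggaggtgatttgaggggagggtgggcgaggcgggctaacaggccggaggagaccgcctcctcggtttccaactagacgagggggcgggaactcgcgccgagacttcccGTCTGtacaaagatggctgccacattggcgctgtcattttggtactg
FDX1, chr11:110429698-110429997, plus strand: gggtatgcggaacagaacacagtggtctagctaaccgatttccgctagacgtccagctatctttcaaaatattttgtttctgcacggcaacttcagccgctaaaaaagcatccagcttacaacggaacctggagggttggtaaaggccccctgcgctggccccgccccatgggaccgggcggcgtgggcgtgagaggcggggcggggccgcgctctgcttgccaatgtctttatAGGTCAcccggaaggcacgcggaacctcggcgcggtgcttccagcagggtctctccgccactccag

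This *RXRA* window held 1 GGCGCC and 1 CAGAC and was 84.0% GC, above 99.5% of all windows. A second *RXRA* window, chr9:134379045-134379344, held none of the 4 motifs and was 64.7% GC. The *RXRB* window shown held 1 CAGAC, printed as GTCTG because it lies on the other strand, and was 60.0% GC. A second *RXRB* window, chr6:33200804-33201103, also held 1 CAGAC and was 54.0% GC. The *FDX1* window held 1 AGGTCA and was 60.3% GC. Of 35116 windows of 300 bases in the table, 19.2% held GGCGCC, 45.3% CAGAC, 13.8% AGGTCA and 10.4% AGTTCA. The repeat of AGGTCA after 3 bases occurred in 2 windows and AGTTCA so repeated in 0, and none of the 7 windows of *CYP2R1*, *RXRA* and *RXRB* held either repeat. *CYP24A1*, *VDR* and *CYP27B1* were not matched in this table. A match is a description of the letters and not a binding site.

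**Figure D3:**
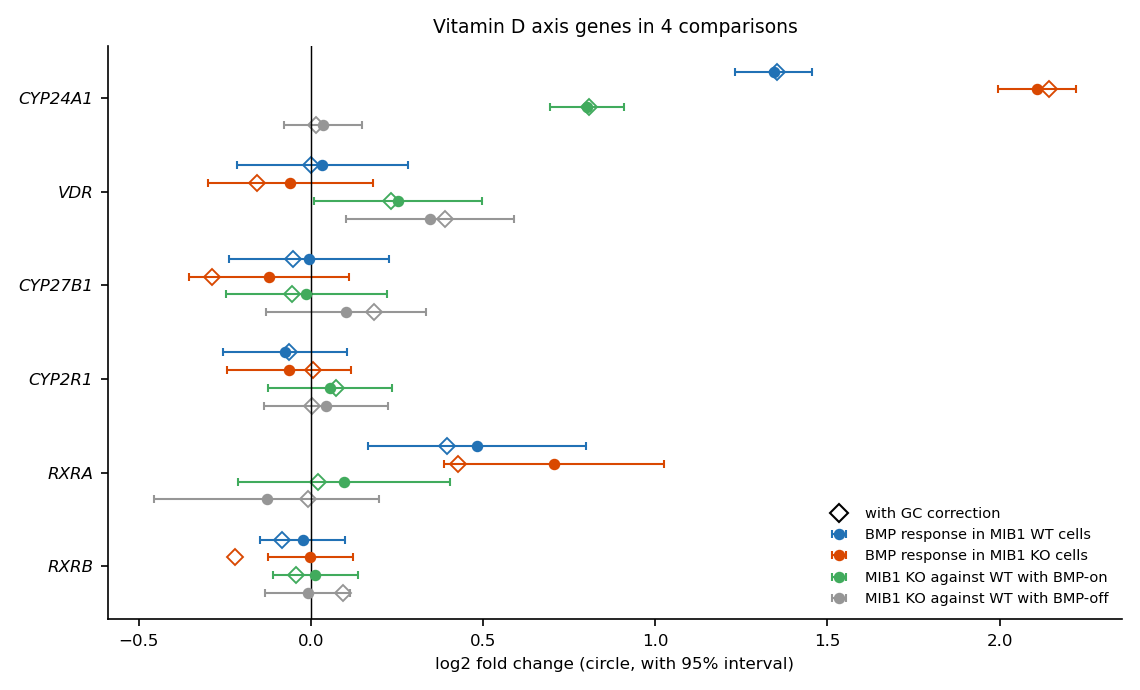
log2 FC of the 6 genes (rows) in 4 comparisons (colors). Circles with bars are estimates with 95% intervals over 12 libraries, and open diamonds are the GC-corrected estimates. *CYP24A1* stands at 1.34 and 2.11 in the BMP responses, which chose it, and at 0.04 for KO against WT with BMP-off, and *RXRA* is the other gene whose intervals for both BMP responses lie above 0.

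Between KO and WT cells with BMP-on, none of the 5 members other than *CYP24A1* passed, where 3.67% of all genes did (1.32% rose and 2.34% fell). The log2 FC of *RXRA* was 0.10 (95% interval -0.21 to 0.40, edgeR adjusted p = 0.86) and that of *RXRB* 0.01 (95% interval -0.11 to 0.14, edgeR adjusted p = 0.96). *CYP27B1* had -0.01 (95% interval -0.25 to 0.22) and *CYP2R1* 0.06 (95% interval -0.13 to 0.24). With BMP-off none of the 5 passed either, where 0.0407% of all genes did. None passed for the interaction, with edgeR adjusted p-values from 0.69 (*RXRA*) to 0.98 (*CYP2R1*). These comparisons share libraries with the BMP responses.

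The wider pathway was described by 7 lists with 94 genes outside the 6 members, of which 68 were tested. In WT cells 6 of the 68 passed with BMP (8.82%), 5 higher and 1 lower. In KO cells 17 passed (25.0%), 13 higher and 4 lower. With BMP-on, 3 passed for KO against WT (4.41%), all higher, and with BMP-off 0 did. The shares over all genes were 3.92% and 22% for BMP in WT and KO cells. For KO against WT they were 3.67% with BMP-on (1.32% rose and 2.34% fell) and 0.0407% with BMP-off. Nothing particular to the lists was tested. The median log2 FC of the 68 genes was 0.04 in WT and 0.01 in KO cells, beside 0.00 and 0.01 for all genes tested. With GC correction, 9 passed in WT cells and 15 in KO cells, 13 of the latter being among the 17, while the shares over all genes became 9.02% and 24.8%.

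**Figure D4:**
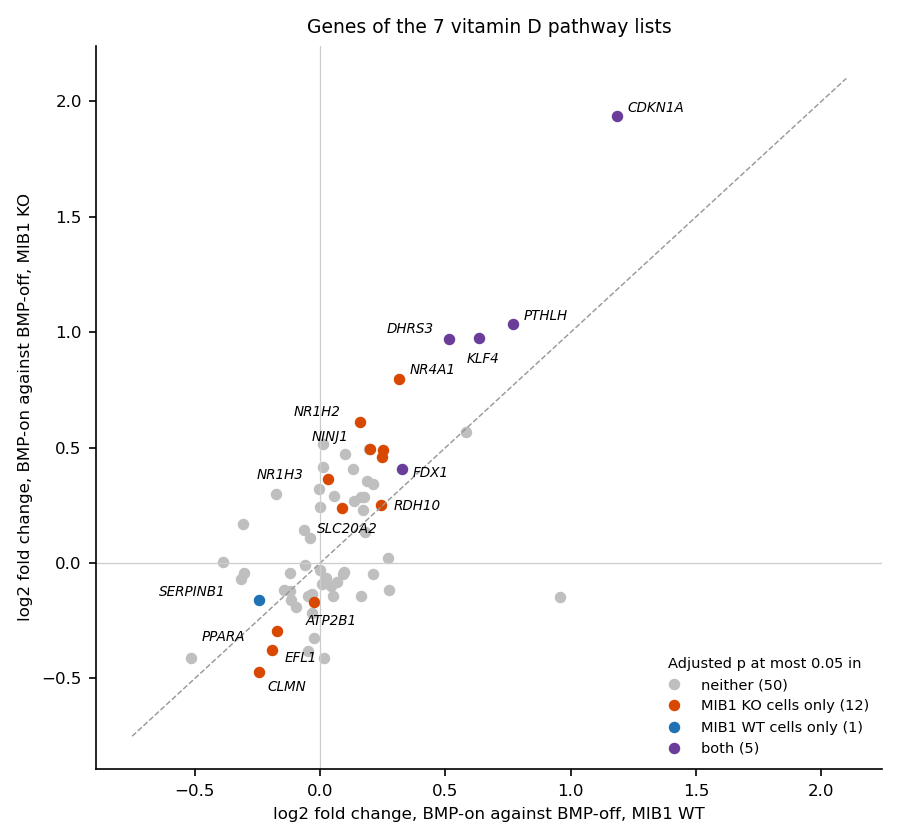
log2 FC with BMP of the 68 tested genes of the 7 pathway lists in WT cells (x axis) and KO cells (y axis), with the line of equal response dashed. Colors mark where the adjusted p was at most 0.05, which was in both backgrounds for 5 genes, in KO cells for a further 12, in WT cells for a further 1 and in neither for 50. *CDKN1A* is the outermost point, at 1.18 and 1.94.

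Among the 4 genes of electron transfer to P450 enzymes, *FDX1* rose in both backgrounds, and *FDX2*, *FDXR* and *POR* did not pass in any. The shares of all genes that passed were 3.92% in WT and 22% in KO cells. *FDX1*, which feeds both CYP24A1 and CYP27B1, had 16.7, 17.3 and 18.4 CPM in WT BMP-off and 22.5, 20.6 and 22.6 CPM in WT BMP-on cells. KO cells had 19.5, 17.6 and 16.6 CPM with BMP-off and 23.3, 23.0 and 25.0 CPM with BMP-on. BMP-on and BMP-off libraries did not overlap in either background. The log2 FC was 0.33 in WT (edgeR adjusted p = 0.023) and 0.41 in KO cells (edgeR adjusted p = 0.0013), both with a standard error of 0.077, with a difference of 0.08 (95% interval -0.15 to 0.31, edgeR adjusted p = 0.80). The KO value passed in all 23 alternative settings. The WT value passed in 17 of the 23. Among others, it was lost on leaving out WT BMP-off replicate 1 or 2 or WT BMP-on replicate 1 or 3, with an adjusted p of at most 0.10.

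Of 7 genes for vitamin D supply, activation and uptake, 4 were tested and 0 passed. With GC correction 1 of them, *CYP27A1*, fell in WT cells. *DHCR7*, which diverts the precursor of vitamin D to cholesterol, was abundant at 33.8 to 51.8 RPKM, and *CYP27A1*, an alternative 25-hydroxylase, had 1.93 to 3.59 RPKM. *GC*, which encodes the vitamin D carrier of blood, was listed at 0.00 RPKM in all libraries, and *LRP2*, its uptake receptor, did not exceed 0.0049 RPKM. All 14 VDR coregulator genes were tested. Of these, 0 passed in WT cells and 1 in KO cells, where 3.92% and 22% of all genes did. With GC correction 2 passed in KO cells, both lower, where 24.8% of all genes did. The median log2 FC of the coregulators was 0.06 in WT and -0.07 in KO cells.

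Among 31 genes described as VDR targets in various tissues, 21 were tested. In WT cells 3 passed, of which *CDKN1A* and *KLF4* rose and *SERPINB1* fell, where 3.92% of all genes passed. In KO cells 7 passed, 4 of them higher and 3 lower, where 22% of all genes passed, with a list median of 0.11 beside 0.01 for all genes. With GC correction 5 passed in KO cells, 3 higher and 2 lower, where 24.8% of all genes passed. The list median was then -0.03, beside -0.01 for all genes. *CDKN1A*, an inhibitor of cyclin-dependent kinases, had 38.4, 43.3 and 43.2 CPM in WT BMP-off and 105, 88.6 and 90.1 CPM in WT BMP-on cells. KO cells had 46.4, 42.3 and 46.9 CPM with BMP-off and 169, 186 and 164 CPM with BMP-on. Its log2 FC was 1.18 in WT (edgeR adjusted p = 7.2e-08) and 1.94 in KO cells (edgeR adjusted p = 4.5e-11), both with a standard error of 0.074. The interaction was 0.75 (standard error 0.10, edgeR adjusted p = 0.0084), and 0.60 with GC correction (edgeR adjusted p = 0.014). This call was lost with a replicate block (edgeR adjusted p = 0.051) and with RPKM values. The study also picks out *CDKN1A* in these libraries, and the list was compiled with earlier results known. The p-value is thus not independent support. *CDKN1A* was the single list gene to pass for the interaction, and it is also a target of other pathways, p53 among them.

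*KLF4*, a transcription factor of epithelial differentiation, rose by 0.64 in WT (edgeR adjusted p = 8.6e-05) and by 0.98 in KO cells (edgeR adjusted p = 1.9e-07). With BMP-on it was higher in KO than in WT cells, by 0.32 (edgeR adjusted p = 0.017), a call lost without WT BMP-on replicate 2 or 3 or KO BMP-on replicate 2. This call held in 18 of the 23 alternative settings. In KO cells *NINJ1* rose (0.49, edgeR adjusted p = 0.018), while *CLMN* (-0.47, edgeR adjusted p = 0.00061), *EFL1* (-0.37, edgeR adjusted p = 0.00088) and *ATP2B1*, a calcium pump of the plasma membrane (-0.17, edgeR adjusted p = 0.035), fell. *SERPINB1* fell by 0.24 in WT cells (edgeR adjusted p = 0.030), a call lost on leaving out any 1 of 8 libraries, the 6 WT libraries among them. The calls of *ATP2B1* and *NINJ1* were lost without 7 and 1 of the 12 libraries in turn. With GC correction *ATP2B1* had -0.08 and no longer passed in KO cells (edgeR adjusted p = 0.14), and *CLMN* passed in WT cells too (-0.23, edgeR adjusted p = 0.047). The intestinal and renal VDR targets *TRPV6*, *TRPV5* and *S100G* and the antimicrobial *CAMP* did not exceed 0.1 RPKM in any library. The exons of *CDKN1A*, *KLF4* and *PTHLH* overlap those of an antisense gene by 146, 357 and 353 bases, so their counts hold this uncertainty.

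The 16 other genes of RXR and its partner receptors held 13 that were tested. In WT cells 0 passed. In KO cells 4 did, beside 22% of all genes, of which *NR4A1*, an orphan receptor (0.80, edgeR adjusted p = 0.0075), and the liver X receptor genes *NR1H2* (0.61, edgeR adjusted p = 0.040) and *NR1H3* (0.36, edgeR adjusted p = 0.025) rose and *PPARA* fell (-0.29, edgeR adjusted p = 0.039). *NR1H2* moved with the GC trend as *RXRA* did, with 52.4, 35.2 and 67.3 CPM in KO BMP-off libraries, and its value dropped to 0.33 with GC correction (edgeR adjusted p = 0.0088). That of *NR1H3* dropped to 0.24 and no longer passed (edgeR adjusted p = 0.061). The calls of *NR1H2*, *NR1H3* and *PPARA* were lost without 6, 4 and 4 of the 12 libraries in turn. They held in 15, 16 and 15 of the 23 alternative settings. *PPARG*, another RXR partner, was the most abundant of the PPAR genes, at 24.6 to 28.7 RPKM.

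Retinoic acid, the other ligand system of RXR pairs, was represented by 12 genes, of which 7 were tested. In WT cells 1 passed with BMP and in KO cells 2 did, beside 3.92% and 22% of all genes. *DHRS3*, which reduces retinaldehyde to retinol, rose by 0.51 in WT (edgeR adjusted p = 0.0047) and by 0.97 in KO cells (edgeR adjusted p = 2.6e-06). WT cells had 19.1, 19.3 and 22.2 CPM of it with BMP-off and 26.3, 29.4 and 30.6 CPM with BMP-on, and KO cells 18.1, 14.8 and 20.1 CPM and 36.2, 34.1 and 33.6 CPM. The 2 responses of *DHRS3* differed by 0.46 (95% interval 0.17 to 0.75), which did not pass (edgeR adjusted p = 0.23). *RDH10*, a retinol dehydrogenase, rose in KO cells (0.25, edgeR adjusted p = 0.022), a call lost without 4 of the 12 libraries in turn. This call held in 15 of the 23 alternative settings. The WT value of *RDH10* was 0.24 (edgeR adjusted p = 0.080), which passed with GC correction (0.25, edgeR adjusted p = 0.015). Of the genes for enzymes that break down retinoic acid, as CYP24A1 does calcitriol, *CYP26B1* had 4.45 to 6.24 RPKM, and *CYP26A1* and *CYP26C1* did not exceed 0.251 RPKM.

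Of 10 genes of the calcium and phosphate axis, 5 were tested. With BMP 1 passed in WT and 2 in KO cells, beside 3.92% and 22% of all genes. Between KO and WT cells with BMP-on 1 passed, beside 3.67% of all genes. *PTHLH*, which encodes parathyroid hormone-related protein, had 7.83, 7.91 and 6.55 CPM in WT BMP-off and 13.8, 11.6 and 12.8 CPM in WT BMP-on cells. KO cells had 10.4, 10.3 and 8.71 CPM with BMP-off and 17.6, 25.5 and 17.7 CPM with BMP-on. It rose by 0.77 in WT (edgeR adjusted p = 0.0054) and by 1.04 in KO cells (edgeR adjusted p = 6.8e-05), and with BMP-on it was higher in KO than in WT cells by 0.66 (edgeR adjusted p = 0.0091), a call lost without WT BMP-on replicate 2. This last call held in 21 of the 23 alternative settings. The interaction was 0.27 (95% interval -0.16 to 0.69, edgeR adjusted p = 0.62). *SLC20A2*, a phosphate transporter, rose by 0.24 in KO cells (edgeR adjusted p = 0.0037).

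*CYP24A1* belongs to the cytochrome P450 family, of which 56 genes were in the table and 22 were tested. Apart from *CYP24A1*, *CYP4F3* passed in WT cells, *CYP4F3*, *CYP2U1* and *CYP1A1* in KO cells, and *CYP4F3* and *CYP2U1* between KO and WT cells with BMP-on, where 3.92%, 22% and 3.67% of all genes passed. *CYP4F3*, a fatty acid and leukotriene hydroxylase, went the other way. It had 13.3, 14.7 and 13.2 CPM in WT BMP-off, 9.03, 9.20 and 8.15 CPM in WT BMP-on, 11.0, 11.2 and 11.5 CPM in KO BMP-off and 6.09, 5.59 and 5.79 CPM in KO BMP-on cells. The ranges of the 4 groups did not overlap. *CYP4F3* fell by 0.64 on the log2 scale in WT cells (edgeR adjusted p = 0.00021), by 0.94 in KO cells (edgeR adjusted p = 1.7e-06) and by 0.59 between WT and KO cells with BMP-on (edgeR adjusted p = 0.0013), and its reads may be shared with other CYP4F genes of similar sequence. *CYP2U1* rose in KO cells (0.52, edgeR adjusted p = 0.019) and with BMP-on exceeded its WT level in KO cells (0.60, edgeR adjusted p = 0.029), calls lost without 2 and 5 of the 12 libraries in turn. These calls held in 18 and 15 of the 23 alternative settings. *CYP1A1*, at 0.843 to 2.02 CPM, fell in KO cells (-0.69, edgeR adjusted p = 0.034), a call lost without 4 of the 12 libraries in turn, with values from -0.85 to -0.22 over the 23 alternative settings.

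The 5 genes whose log2 CPM followed *CYP24A1* most closely over the 12 libraries were found among 12836 other genes with a mean of at least 50 counts. They were *CDKN1A* (Pearson's r = 0.992), *SOCS2* (0.992), *RAB31* (0.991), *ADAMTSL3* (0.990) and *GOLIM4* (0.989). These values describe 12 points in 4 groups. The size of the change was not alike. *SOCS2*, an inhibitor of cytokine signaling, had 20.6, 20.5 and 19.1 CPM in WT BMP-off, 40.0, 38.3 and 38.6 CPM in WT BMP-on, 20.8, 20.3 and 20.7 CPM in KO BMP-off and 71.5, 74.1 and 74.9 CPM in KO BMP-on cells. *RAB31*, a small GTPase, averaged 1.26-fold higher with BMP-on in WT and 1.44-fold in KO cells. *SOCS2* shares 277 exonic bases with its antisense gene, which had a median of 38 counts. By rank (Spearman's rho) the order changed, and the 5 genes had 0.80 to 0.87 while *BHLHE41*, noted after its value was seen, led with 0.986. Of the other members *RXRA* had an r of 0.82, rank 660, and *VDR* 0.16, *RXRB* -0.10, *CYP27B1* -0.28 and *CYP2R1* -0.38.

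**Figure D5:**
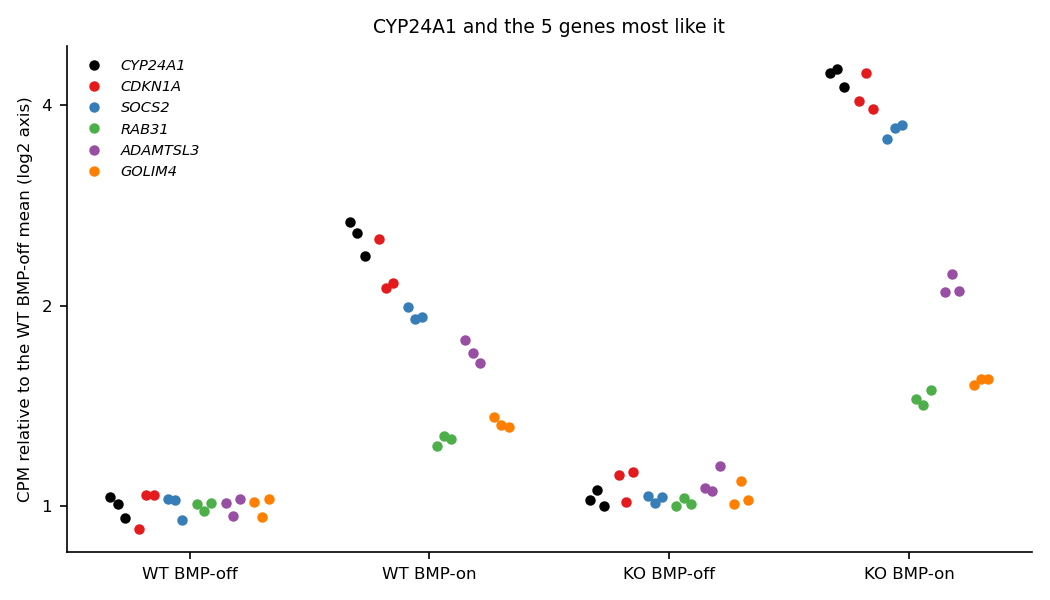
CPM of *CYP24A1* and of the 5 genes with the highest Pearson's r to it, relative to each gene's WT BMP-off mean (log2 axis), with 1 point per library in each of the 4 groups. *CYP24A1*, *CDKN1A* and *SOCS2* reach means of 2.54, 2.27 and 1.94 in WT BMP-on cells, and *RAB31*, *ADAMTSL3* and *GOLIM4* reach 1.26, 1.70 and 1.33.

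The summed level of markers listed for fibroblasts was higher with BMP-on, as *CYP24A1* was. Of 5, 3 were tested, and *COL1A1* and *PDGFRB* rose in KO cells (1.39 and 0.92, edgeR adjusted p = 0.00060 and 0.014). In WT and KO cells 3.92% and 22% of all genes passed with BMP. With GC correction the KO values were 1.09 and 0.73 (edgeR adjusted p = 1.2e-06 and 0.037). *COL1A1* then passed in WT cells too (0.64, edgeR adjusted p = 0.00077). The summed level of the list ranged from 15.6 to 22.1 CPM in WT BMP-off, 30.5 to 32.0 CPM in WT BMP-on, 12.6 to 21.1 CPM in KO BMP-off and 35.7 to 43.5 CPM in KO BMP-on cells. *COL1A1* made up most of it. *LUM* had 0.723 to 1.62 CPM and did not pass (-0.11 in WT and 0.08 in KO cells, edgeR adjusted p = 0.86 and 0.85), and *DCN* and *COL1A2* did not exceed 0.227 CPM in any library. *EPCAM*, an epithelial adhesion gene, fell by 0.56 in WT and by 0.61 in KO cells (edgeR adjusted p = 0.0079 and 0.0015), and *KRT8* rose in KO cells (0.61, edgeR adjusted p = 0.0041). *CDH5*, an endothelial gene at 0.038 to 0.503 CPM, fell in KO cells (-2.28, edgeR adjusted p = 0.032). Their part in the results above was not tested.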

How the data were processed

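RNA-seq of 12 libraries of MIB1-iKO NCIH838 cells was used, 3 for each of 4 groups read from the sample labels. Nothing there says that replicates were separate cultures, so p-values measure the spread between these libraries, which may be technical. Per the study's methods, the authors filtered out ribosomal reads, mapped the remainder to GRCh38 by GSNAP and counted reads on RefSeq exons with HTSeqGenie. Of a pair of library kits named, 1 keeps the strand, and which was used here is not given. The deposited counts are whole numbers without normalization. The RPKM values were deposited by the authors after normalization, and served for levels between genes and for alternatives. Symbols and positions are those of GENCODE v44, which matched 57532 identifiers.

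Counts were tested in R 4.3.3 with edgeR 4.0.16 (TMM, filterByExpr, robust quasi-likelihood test) on all libraries at once, with Benjamini-Hochberg adjustment over 17188 genes in each of 5 comparisons. A gene passed, and is said to have risen or fallen, at an adjusted p of at most 0.05. Where group ranges are said to lie apart, this describes the named gene, and the share of all genes that do so was not counted. GC correction used an offset from a loess curve (span 0.4) of each library's deviations against the GC content of a gene's longest transcript, for 17090 genes. Alternatives were DESeq2 1.42.0, limma-voom 3.58.1, other scalings, stricter and absent count filters, a fit of the compared groups alone, a replicate block, leaving out each library, and log2(RPKM + 1) or log2(RPKM + 0.1). The scripts were tested on simulated data.

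The members and lists were chosen with earlier results of these data known, and the lists came from general knowledge. Genes named are the members, *MIB1*, per list and comparison up to 3 with the highest and 3 with the lowest log2 FC among those that passed, P450 genes by the same rule, the 5 genes most like *CYP24A1* and its neighbors. Other genes are given as levels or markers, and 1 gene that this rule names is not reported here.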

Additional observations from a re-analysis of the deposited data

Results flagged for a closer look

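Of the members and lists, 2 genes were flagged by the difference of their BMP response between KO and WT cells. Of all genes, 0.0931% passed the test of this difference. For *CYP24A1* the difference was 0.77 on the log2 scale, and since the gene was chosen for this response the value is a description. For *CDKN1A* it was 0.75 (edgeR interaction, adjusted p = 0.0084, higher in 3 of 3 KO BMP-on libraries than in any WT BMP-on library). The study also picks out this gene in these libraries, so its p-value is not independent support. With a replicate block or with RPKM values the adjusted p of *CDKN1A* missed the threshold, reaching at most 0.060.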

How the results depend on the processing

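Of 77 results under up to 23 alternative settings, none that passed changed direction. *CYP24A1* moved by more than the replicate spread with log2(RPKM + 1) alone, to 1.28 in WT and 2.01 in KO cells. The WT response of *RXRA* passed, making 1 passing member other than *CYP24A1*, with DESeq2 (0.48, 1 member), limma-voom (0.47, 1 member), no filter (0.48, 1 member), the compared groups alone (0.48, 1 member) and GC correction (0.40, 1 member), and on leaving out 1 library it ranged from 0.42 to 0.61 with 0 to 1 members. With GC correction 3 members passed in KO cells. Of the pathway list genes, 17 passed in KO cells, against 26 without a filter, 11 in the compared groups alone and 10 to 34 on leaving out 1 library, with 11 without KO BMP-off replicate 1, 34 without KO BMP-off replicate 3 and 10 without KO BMP-on replicate 1. Between KO and WT cells with BMP-on, 3 passed, against 5 in the compared groups alone, 1 with log2(RPKM + 0.1) and 1 to 4 on leaving out 1 library (1 without WT BMP-on replicate 2). With BMP-off 0 passed, against 3 without a filter and 1 with GC correction. For the interaction 1 passed, against 2 without a filter, 0 with log2(RPKM + 1), 0 with log2(RPKM + 0.1) and 1 to 2 on leaving out 1 library (2 without KO BMP-off replicate 3). The cause of these changes was not tested.

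Of 18 same-numbered pairs of libraries, 2 had deviations from their group means that correlated above 0.1. Libraries of different number were not compared in this way, so a pairing by replicate number was not excluded. With a replicate block, 0 list genes passed for the interaction, 15 in KO and 5 in WT cells, and *RXRA* had 0.49 in WT and 0.72 in KO cells.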
